A study of Mus musculus with 8 samples.

Results

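The 8 left ventricle samples of the study were divided into 2 sets, chosen by their measured level of Myl4, the gene of the atrial essential myosin light chain. On the log2 scale of normalised array intensity, 4 samples lay above 13.5 and 4 below 12.5. The high set held normal salt mice N2, N3 and N4 and low salt mouse L2. The low set held normal salt mouse N1 and low salt mice L1, L3 and L4. All 8 samples of the series were members of one set or the other, and they are called Myl4-high and Myl4-low here. The sample just inside the high set was L2, at 13.99, and the one just inside the low set was L4, at 12.42. Because the sets were made from measured levels of these samples, every difference between them is a description and carries no p-value.

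All mice were male C57Bl/6j, an inbred laboratory strain, and 16 weeks old. Normal salt mice had eaten chow with 0.4% sodium and low salt mice chow with 0.05% sodium for the last 8 weeks, with 4 mice in each diet group. Each sample is homogenised bulk tissue of 1 mouse, from septum, apex and free wall together. RNA was read on 2-colour Agilent mouse arrays, each carrying 2 mice of the same diet, one labelled Cy3 and the other Cy5.

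The sets were not balanced over these factors. Of the 4 Myl4-high samples, 3 were normal salt and 3 were labelled with Cy5, and of the Myl4-low samples 3 were low salt and 3 were labelled with Cy3. The linear model therefore held diet and dye as terms beside the set, and differences within each dye and each diet are given for the main genes. The Cy3 comparison set N3 against N1, L1 and L3, and the Cy5 comparison set N2, N4 and L2 against L4, so no mouse was used in both. Within normal salt N2, N3 and N4 stood against N1, and within low salt L2 stood against L1, L3 and L4. The 4 arrays lay on 1 slide. Spot intensities had a median of 116 to 147 per sample, and between 53.0% and 66.3% of spots were well above background.

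Adult atrial and ventricular muscle cells build their sarcomeres from different myosin light chains. Atrial cells use Myl4 and Myl7, and ventricular cells use Myl3 and Myl2. Atrial cells also hold sarcolipin (Sln), a small membrane protein that slows the calcium pump of the sarcoplasmic reticulum, and store atrial natriuretic peptide (Nppa), a hormone that makes the kidney excrete salt. In the adult ventricle Myl4, Myl7 and Sln are low, while Nppa can be induced in ventricular muscle cells under load.

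The genes on which the result turned were Myl4, Sln, Myl7, Mybphl and Sbk3, with Nppa as the atrial gene that behaved otherwise. The first 30 bases of each probe, from its 5′ end as the array design lists it, are shown to identify what was measured. The positions are those of the array design on mm9. No exon or untranslated region was assigned to them here.
Myl4 (chr11:104448441-104448500, plus strand): gttactgttacggagtattggactcacatg
Sln (chr9:53701574-53701633, plus strand): gccttagctttgttccctagcaaatgtact
Myl7 (chr11:5798186-5798435, minus strand): caaggaagccttcagctgcattgaccagaa
Mybphl (chr3:108178294-108178353, plus strand): tcacagtcctggagcgttaccaccgaacca
Sbk3 (chr7:4916893-4916952, minus strand): cttggcaactgtgtgtcttttacaactgtg
Nppa (chr4:147376024-147376083, plus strand): cttcctgccttcatctatcacgatcgatgt
Each probe has 60 bases. The design gives Myl7 a span longer than its probe.

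The 250 bases upstream of the RefSeq transcription start are given for 3 of the genes that were higher together and for Nppa, from the RefSeq promoter table on GRCm38.p6. They were searched on both strands for GATAA (GATA factors), AGGTGT (a T-box half-site), TNAAGTG (NKX2-5) and the MEF2 motif, factors known to act in heart muscle. Capitals mark the matches.
Myl7 (chr11:5898783-5899032, minus strand): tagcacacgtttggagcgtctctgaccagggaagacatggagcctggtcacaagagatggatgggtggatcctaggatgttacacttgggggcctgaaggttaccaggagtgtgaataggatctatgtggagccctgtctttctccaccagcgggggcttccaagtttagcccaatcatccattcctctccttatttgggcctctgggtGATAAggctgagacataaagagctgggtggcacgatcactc
Mybphl (chr3:108364661-108364910, plus strand): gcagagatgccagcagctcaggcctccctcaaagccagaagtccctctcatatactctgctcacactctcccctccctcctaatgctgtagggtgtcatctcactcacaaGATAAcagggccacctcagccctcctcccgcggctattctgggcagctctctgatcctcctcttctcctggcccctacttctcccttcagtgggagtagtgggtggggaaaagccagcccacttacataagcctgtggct
Sbk3 (chr7:4970962-4971211, minus strand): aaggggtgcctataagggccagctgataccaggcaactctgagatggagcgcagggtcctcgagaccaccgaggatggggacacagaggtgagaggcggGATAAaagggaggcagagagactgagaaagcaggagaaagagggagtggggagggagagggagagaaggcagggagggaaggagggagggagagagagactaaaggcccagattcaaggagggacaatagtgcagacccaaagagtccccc
Nppa (chr4:148000472-148000721, plus strand): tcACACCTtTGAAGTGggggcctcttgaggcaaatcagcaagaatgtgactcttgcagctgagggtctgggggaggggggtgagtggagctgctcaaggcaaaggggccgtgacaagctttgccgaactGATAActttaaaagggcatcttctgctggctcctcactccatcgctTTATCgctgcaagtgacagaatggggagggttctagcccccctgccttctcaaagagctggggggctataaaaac
The GATAA letters stood once each in the windows of Myl7, Mybphl and Sbk3, beginning at positions -41, -140 and -151 from the start. They stood at 2 places in the Nppa window, which also held 1 AGGTGT and 1 TNAAGTG match. The Myl4 window held 0 matches of the 4 searched patterns. Among 32851 upstream windows of the same length, 22.6% held GATAA, 11.8% AGGTGT, 10.1% TNAAGTG and 3.2% the MEF2 motif. A match says only that the letters are present.

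Sln was the gene with the largest fitted difference. Its log2 intensity was 10.17, 8.79, 10.41 and 9.83 in the Myl4-low mice N1, L1, L3 and L4, and 12.42, 13.82, 13.36 and 12.07 in the Myl4-high mice N2, N3, N4 and L2. The sets did not overlap, and 1.66 log2 units separated the lowest high sample from the highest low one. With diet and dye in the model the difference was 3.16 ± 0.42 (SE, 8 samples), an 8.94-fold higher level. It was 4.02 within Cy3 and 2.79 within Cy5, and 3.03 within normal salt and 2.40 within low salt.

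Myl4, which defined the sets, read 12.38, 11.01, 12.35 and 12.42 in N1, L1, L3 and L4, and 14.51, 15.47, 15.27 and 13.99 in N2, N3, N4 and L2. N3 and N4 were the highest and L1 the lowest. In the scanner's own intensity units, before any correction, the Myl4 spot read 3773 in N1 and 30465 in N2, which shared an array, and 1515 in L1 and 16096 in L2, which shared another. In both pairs the Myl4-high mouse was in Cy5, so these readings hold a dye difference as well. The spot also read brighter in Cy5 for the Myl4-low pair, at 4798 in L3 (Cy3) and 7637 in L4 (Cy5). With diet and dye in the model the sets differed by 2.51 ± 0.38 on the log2 scale.

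Myl7, the atrial regulatory light chain, read 9.38, 8.57, 9.75 and 9.71 in N1, L1, L3 and L4. It read 11.26, 11.51, 11.51 and 11.34 in N2, N3, N4 and L2. Its Myl4-high samples lay within 0.25 log2 units of each other, whereas those of Sln spread over 1.74. In the fit Myl7 was higher by 2.17 ± 0.31, with 2.27 within Cy3, 1.66 within Cy5, 2.04 within normal salt and 2.00 within low salt. Blocked on mouse number it was 1.41. With that block the set difference is one between arrays, so set and array cannot be told apart in any blocked set difference given here.

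Mybphl encodes a myosin-binding protein of the sarcomere that is enriched in atria. It read 7.43, 7.24, 7.67 and 7.43 in N1, L1, L3 and L4, and 9.22, 10.14, 10.47 and 8.89 in N2, N3, N4 and L2. Its 4 Myl4-low samples were close together and near the dim end of the scale. It was higher by 1.83 ± 0.31 in the fit, by 2.70 within Cy3, 2.10 within Cy5, 2.51 within normal salt and 1.44 within low salt. The sets did not overlap.

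Sbk3, a kinase gene of the atrial list, read 9.37, 8.53, 8.68 and 8.91 in N1, L1, L3 and L4. It read 10.50, 10.61, 11.10 and 10.22 in N2, N3, N4 and L2. The fitted difference was 1.14 ± 0.19, smaller than the 1.75 within Cy3, 1.70 within Cy5, 1.36 within normal salt and 1.52 within low salt. Its relative Sbk2 had a fitted difference of -0.09 ± 0.09.

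**Figure D1:**
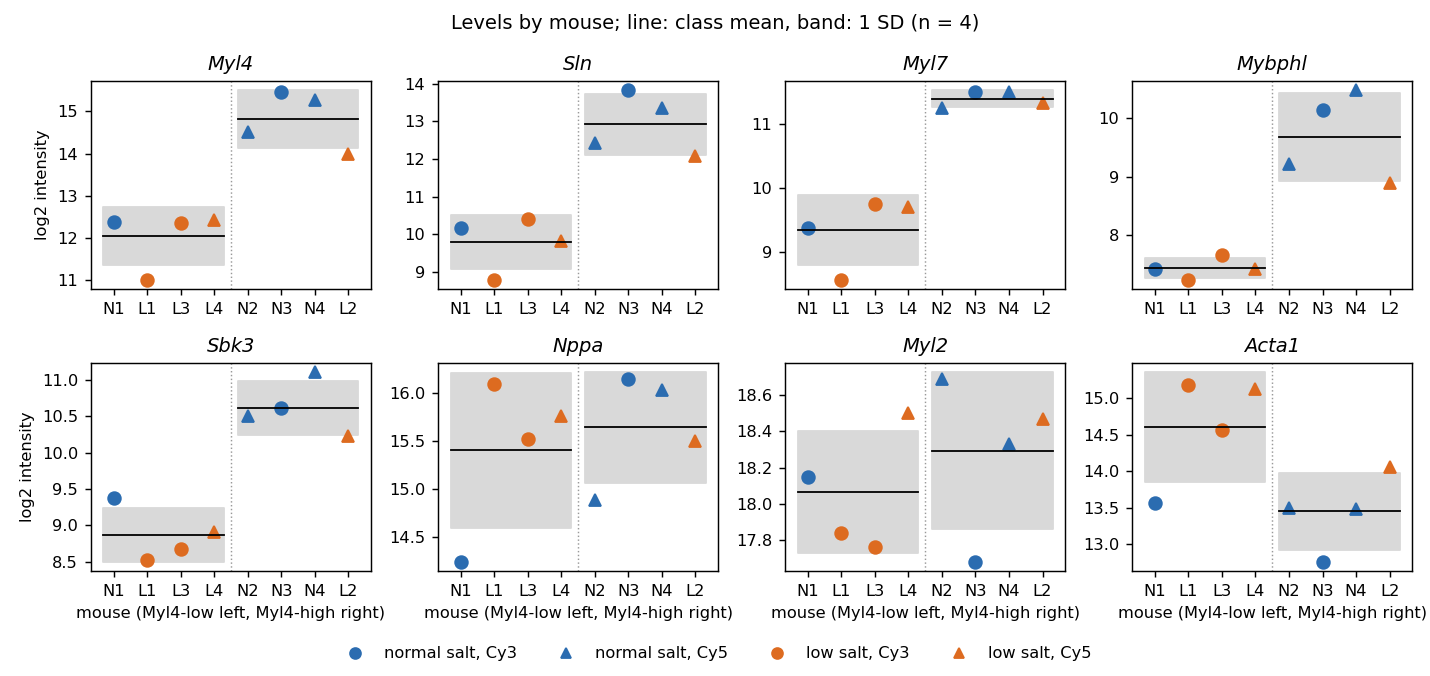
Log2 intensity of 8 genes in each mouse, with a separate vertical scale for each gene. Colour gives the diet, shape the dye, the line the mean of each set and the band 1 SD (n = 4). Myl4, Sln, Myl7, Mybphl and Sbk3 do not overlap between the sets, while Nppa, Myl2 and Acta1 do.

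The 5 genes also varied within the sets, though Myl7 spanned only 0.25 log2 units in the Myl4-high mice and Mybphl only 0.43 in the Myl4-low mice. Myl4 made the sets and the others were picked by the same contrast, so their shared order is a description only. L1 was the lowest of all 8 samples in 5 of the 5 genes, and N3 or N4 was the highest in 5 of the 5. L2 was the lowest Myl4-high sample in 4 of the 5, Myl7 being the exception. Relative to L1, Myl4 was 7.84-fold higher in L2, 11.3-fold in N2, 22.0-fold in N3 and 19.1-fold in N4. Myl4 was also 2.58-fold higher in N1, 2.52-fold in L3 and 2.65-fold in L4 than in L1. Relative to L1, Sln was 32.6-fold higher in N3 and 9.74-fold higher in L2. These folds understate those of the dim gene Mybphl most, since a constant was added to each intensity.

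Mice on the same array can also be compared with each other. The arrays of N1 with N2 and of L1 with L2 each carried 1 sample of either set, and those of N3 with N4 and of L3 with L4 carried 2 of the same set. For Myl4 the difference within the array was 2.13 for N2 minus N1 and 2.97 for L2 minus L1. It was -0.20 for N4 minus N3 and 0.07 for L4 minus L3. For Sln the mixed arrays gave 2.25 and 3.28 and the others -0.46 and -0.58. On both mixed arrays the Myl4-high mouse was in Cy5. The sets fixed the sign of the Myl4 differences there, so these values are a description.

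Nppa, named with Myl4, Sln and Myl7 among the markers of the sets, did not separate them. It read 14.25, 16.09, 15.52 and 15.76 in N1, L1, L3 and L4, and 14.89, 16.14, 16.03 and 15.50 in N2, N3, N4 and L2. L1, which was lowest in the 5 genes above, was the second highest sample for Nppa. The fitted difference was 0.29 ± 0.46, with 0.85 within Cy3 and -0.28 within Cy5. The Nppa probe stood at 10 spots per array, whose SD was 0.04 to 0.15 log2 units per sample, against an SD of 0.80 over the 4 Myl4-low mice and 0.57 over the 4 Myl4-high mice. Without N1 it was -0.51 and without N3 -0.09, and blocked on mouse number it was 1.67.

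Other genes of secretion and granules also showed no common direction. Dkk3, a secreted glycoprotein, was high in N3 and N4, at 10.21 and 9.81, and lay between 7.47 and 8.82 in the other samples. Its fitted difference was 0.64 ± 0.59. Pam, the enzyme that amidates peptide hormones, differed by 0.05 ± 0.24. Clu, a secreted chaperone, was lower in every Myl4-high sample than in every Myl4-low sample, but the fitted difference was small (-0.21 ± 0.13). It was -0.04 with the local trend of the array subtracted, -0.08 without L2 and -0.05 without N3. The probe of Bmp10, an atrial growth factor gene, was well above background in 2 Myl4-high and 1 Myl4-low samples and was not kept.

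Among ion channels, Kcnj5, a subunit of the acetylcholine-activated potassium channel of atrial cells, read 11.50, 11.42, 11.39 and 11.43 in N1, L1, L3 and L4. It read 11.87, 11.76, 11.82 and 11.81 in N2, N3, N4 and L2. The sets did not overlap, but the fitted difference was only 0.32 ± 0.08, with 0.31 to 0.40 within the dyes and diets. Its partner subunit Kcnj3 differed by 0.28 ± 0.14 with overlap. The potassium channel genes Kcnk3 and Kcna5 differed by 0.25 ± 0.13 and -0.08 ± 0.15, and Gja5, which encodes the gap junction protein connexin 40, by -0.15 ± 0.14. A second probe of Kcna5 read 0.48 higher in the mean of the Myl4-high samples, so its 2 probes disagreed.

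Of the transcription factors, Tbx5, a T-box factor of atrial and conduction identity, was higher in every Myl4-high sample. It lay between 10.31 and 10.49 in the Myl4-low and between 10.61 and 10.97 in the Myl4-high mice, and the fitted difference was 0.39 ± 0.13, or 0.21 without L2. Nr2f2, an orphan receptor of atrial identity, differed by 0.13 ± 0.10 and its relative Nr2f1 by -0.20 ± 0.18. Stard10, a lipid transfer protein gene of the atrial list, was higher in every Myl4-high sample, by 0.35 ± 0.19, but by 0.17 without L2, 0.21 without L1 and 0.12 with the mouse number as a block.

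In all, 19 of 22 listed atrial genes were measured. Apart from Myl4, which made the sets, 3 of 3 contractile and calcium genes were at least 2-fold higher in the fit and in both dyes, as were 0.132% of all 18250 genes tested. Their median difference was 2.17, against 0.01 over all genes. Of these 3 genes, Sln and Myl7 were named among the markers of the sets, as Nppa was. The contrast is that of the rule, so these are descriptions. The median was 0.17 over 4 genes of secretion and granules, 0.25 over 5 channel and junction genes, 0.13 over 3 transcription factors and 0.35 over 3 others, of which Sbk3 alone passed that rule. Summed over Sln, Myl7 and Mybphl, intensity lay between 7385 and 18465 in the Myl4-high samples and between 973 and 2430 in the Myl4-low samples. In bulk tissue, more cells of a type and more RNA per cell cannot be told apart.

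The light chains of the ventricle were bright in all 8 mice. Myl2, the ventricular regulatory light chain, lay between 17.68 and 18.69 and differed by -0.16 ± 0.12 between the sets (-0.24 within Cy3 and 0.08 within normal salt). Myl3, the ventricular essential light chain, differed by 0.10 ± 0.11. Of 8 ventricular genes, 0 passed the 2-fold rule in either direction and 0 were without overlap, and the median difference was 0.01. Over all genes 0.132% were called higher and 0.00548% lower, and 2.52% and 1% were without overlap. For so few genes nothing is read from such counts, here or in the lists below. Phospholamban (Pln), the ventricular counterpart of sarcolipin at the calcium pump, differed by 0.43 ± 0.22, and the ventricular transcription factor Irx4 by 0.12 ± 0.14. Myh7, the slow myosin heavy chain, differed by -0.05 ± 0.46. The transcription factor genes Irx5 and Hey2 and the potassium channel gene Kcnj2 were dim, and Hey2 was well above background in 3 Myl4-high and 2 Myl4-low samples.

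The 14 general muscle genes had a median difference of 0.10. Tnnt2, cardiac troponin T, was higher in every Myl4-high sample, by 0.34 ± 0.09 (0.21 with the mouse number as a block), and was the only one of the 14 without overlap. Ryr2, the calcium release channel, differed by 0.57 ± 0.24 with overlap, and by 0.04 within Cy5.

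Over all genes, 24 of 18250 (0.132%) were at least 2-fold higher in the Myl4-high samples in the fit and in both dyes, and 1 (0.00548%) was at least 2-fold lower. The rule that made the sets used this contrast, so nothing is read from these counts. Without the size limit, 460 genes (2.52%) were higher in every Myl4-high than in every Myl4-low sample, and 183 (1%) were lower in every one. Their median differences were small, 0.20 and -0.24. Only 10 of the 460 reached a fitted difference of 1 and 0 of the 183 reached -1. Of the 24 genes called higher, 9 did not overlap. Without N1 the count was 8 and without N4 it was 9, and the count of lower genes was 0 without L2 and 8 without L1.

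**Figure D2:**
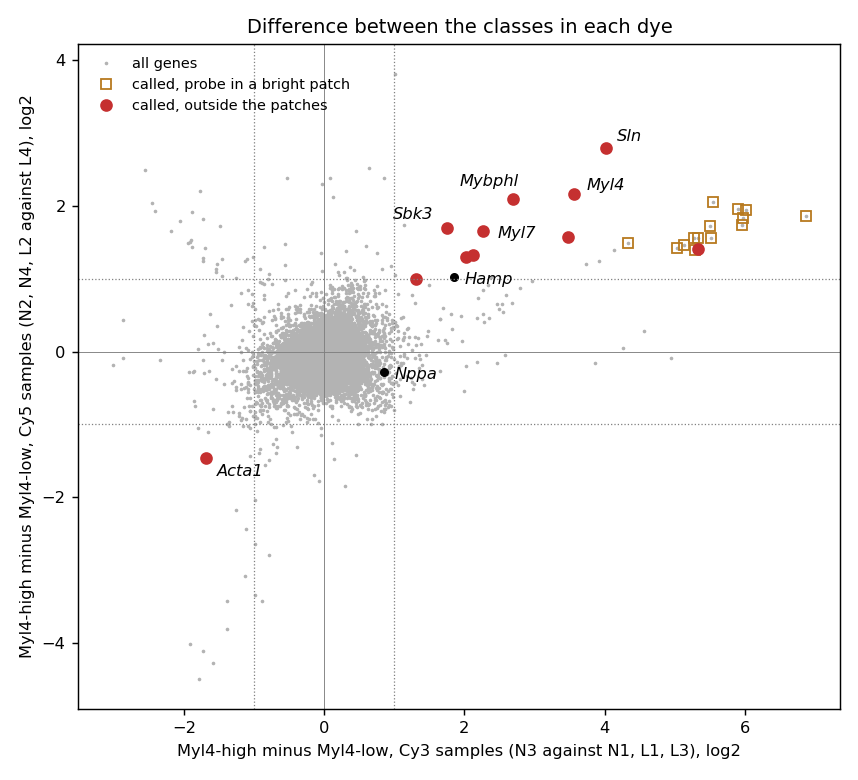
Difference between Myl4-high and Myl4-low samples in Cy3 (horizontal) and in Cy5 (vertical), log2, 1 point per gene, with dotted lines at 1 and -1. Sln, Myl4, Mybphl, Myl7 and Sbk3 stand in the upper right, and open squares mark called genes whose probes lie in small bright patches of an array.

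Most of the 24 lay close together on 1 array. A bright patch was defined as a group of neighbouring spots at least 1 log2 unit brighter in both channels of an array than on the other arrays. Such patches held 62 spots of the array of N3 and N4, and 14 of the 24 genes had their probe there, 10 of them with a gene symbol. Hyls1, a centriole gene, read 13.27 in N3 and 12.58 in N4, against at most 6.82 in the other 6 mice. Zfp58 and Slc35b3 were of the same kind. Over the 14 genes, N3 and N4 stood 4.09 to 6.35 above the mean of the other mice. L2 differed from the low salt Myl4-low mice by -0.13 to 0.27. Tmem255a was not well above background in any Myl4-low sample, so it was kept only through the Myl4-high set. It was at least 7.15-fold higher in the mean of the Myl4-high mice, but only N3 and N4 were raised, at 12.83 and 12.22. N2 and L2 read 6.83 and 6.74, within the 6.66 to 6.92 of the Myl4-low mice. The second probe of Tmem255a differed by -0.07. Second probes of Hyls1, Zfp58, Uba6, Olfr282, St6gal2 and Arpp21 differed by -0.11 to 0.04, most of them dim. The other arrays held 45 to 68 spots in patches, with 0 genes called higher in them. Only the array of N3 and N4 carried Myl4-high mice in both channels, so a patch elsewhere could not raise that set in both dyes.

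**Figure D3:**
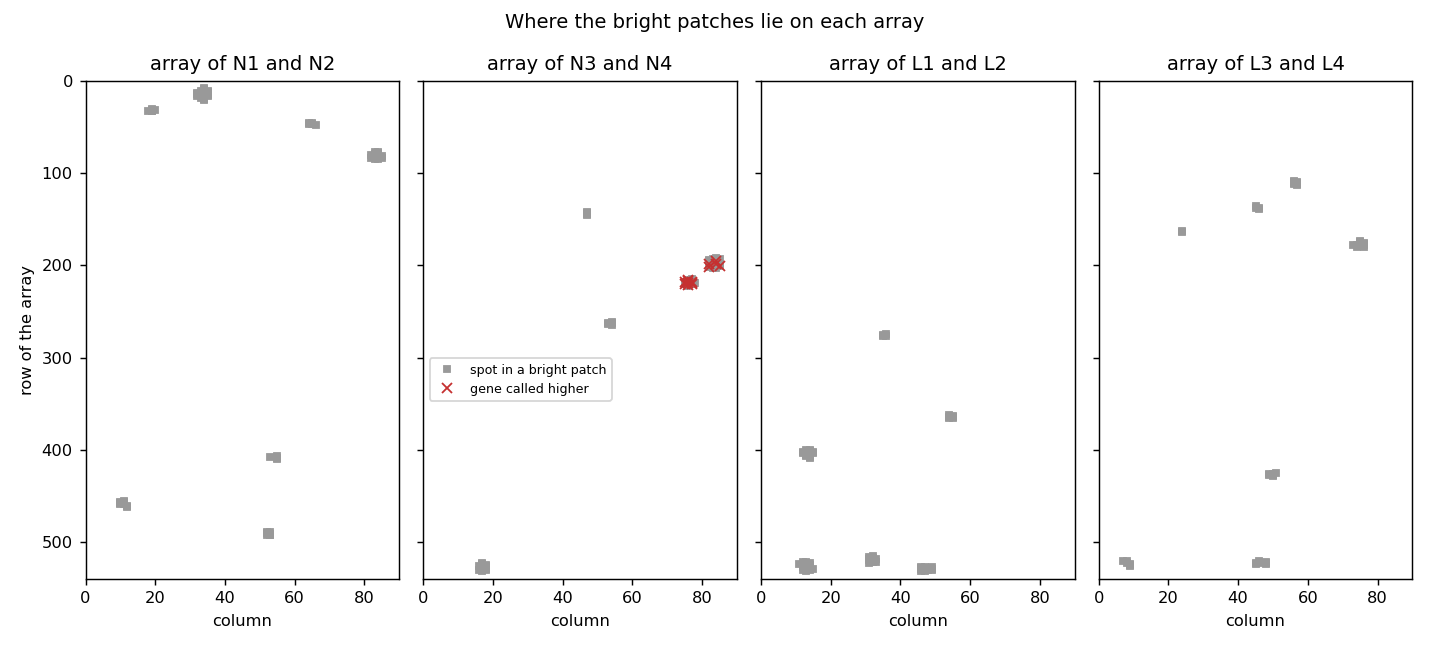
Row and column of the spots in bright patches on each of the 4 arrays (grey), with the genes called higher whose probes lie in them (red crosses). The 14 crosses are all on the array of N3 and N4, in neighbouring patches near its right edge.

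Outside the patches 10 genes were called higher, and 5 had a symbol, namely Sln, Myl4, Myl7, Mybphl and Sbk3. The other 5 kept the identifier of the array file. A_55_P1974780 read 9.78, 9.29, 9.59 and 9.40 in N1, L1, L3 and L4, and 11.14, 11.58, 11.04 and 9.92 in N2, N3, N4 and L2, a fitted difference of 1.28 ± 0.25. A_55_P1968085 differed by 1.22 ± 0.21 and had no position in the file. A further one, ENSMUST00000098653, was high in N3 and N4 alone, at 11.80 and 10.55 against at most 6.76 elsewhere, like the genes in the patches. Its sets nevertheless did not overlap. A_55_P2007660 differed by 1.71 ± 0.57 but was high in N3 alone, at 10.48, and had no value in N4. N2 and L2 read 7.17 and 7.40 for it, within the 5.70 to 7.43 of the Myl4-low mice.

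Asking for at least 1.5-fold in the fit, in both dyes and in both diets left 8 genes (0.0438%) higher and 1 (0.00548%) lower. The higher ones included Hamp, named after its values were seen, which encodes hepcidin, the hormone that lowers iron export from cells. Hamp read 7.24, 7.17, 6.92 and 7.77 in N1, L1, L3 and L4, and 8.62, 8.96, 9.31 and 8.47 in N2, N3, N4 and L2. The fitted difference was 0.92 ± 0.23, within Cy3 1.85 and within Cy5 1.03. Without N3 it was 0.57, under the 1.5-fold limit, and with the mouse number as a block 1.68. Signal of its near-identical copy Hamp2 may not be fully separated by hybridisation, and the probe named Hamp2 differed by 0.05 ± 0.12. The lower gene, also named after its values were seen, was Pi16, a gene of fibroblasts, at -1.04 ± 0.28 with overlap and at -0.65 without L2. Its fitted difference was larger in size than those within the dyes and diets. They were -0.91 within Cy3, -0.73 within Cy5, -0.60 within normal salt and -0.77 within low salt.

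The 1 gene called lower at 2-fold was Acta1, skeletal alpha-actin, a gene of fetal and stressed ventricle. It read 13.56, 15.18, 14.56 and 15.13 in N1, L1, L3 and L4, and 13.50, 12.76, 13.48 and 14.06 in N2, N3, N4 and L2. The samples overlapped, since N1 lay below L2, and within normal salt the difference was -0.32. In the fit Acta1 differed by -1.13 ± 0.28. Without L2 it was -0.68 and with the mouse number as a block -0.64, both under the 2-fold limit. The 8 stress and fetal genes had a median difference of -0.15, with Gdf15, a stress cytokine, at -0.52 ± 0.34.

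All 8 fibroblast genes measured had a fitted difference below 0, with a median of -0.75, but 0 of them were without overlap and their median within Cy3 was -0.02. Decorin (Dcn), a matrix proteoglycan, read 16.42, 15.45, 15.38 and 15.94 in N1, L1, L3 and L4. It read 16.00, 15.81, 15.74 and 14.77 in N2, N3, N4 and L2, so that the lowest value was that of L2. The fitted difference was -0.83 ± 0.18, against 0.06 within Cy3. The 4 smooth muscle genes had a median of -0.62 and -0.14 within Cy3, with Cnn1, calponin, at -0.90 ± 0.19. Within Cy5 the medians were -0.46 for fibroblast and -0.33 for smooth muscle genes.

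Von Willebrand factor (Vwf), the clotting protein of endothelial cells, was an exception in being lower in every Myl4-high sample. It read 12.66, 12.61, 12.05 and 12.07 in N1, L1, L3 and L4, and 11.93, 11.69, 11.79 and 11.51 in N2, N3, N4 and L2, with a fitted difference of -0.90 ± 0.16. It was -0.75 within Cy3, -0.32 within Cy5, -0.86 within normal salt and -0.73 within low salt, and -0.55 with the mouse number as a block. The other endothelial genes differed by less, and the median of all 9 was -0.20, but 0.09 within Cy3 and -0.04 within Cy5. Krt8, an epithelial keratin of the epicardial list, was also lower in every Myl4-high sample (-0.36 ± 0.09), near the dim end of the scale. Of the 10 epicardial and mesothelial genes 4 were measured, and Upk3b, Upk1b, Krt19, Lrrn4 and Bnc1 were not well above background in any sample. The 6 macrophage genes had a median of -0.29. All 5 fat cell genes measured were below 0 in the fit, with a median of -0.23 and 0 without overlap. Cfd, a complement protease of fat cells, was the lowest of them at -0.93 ± 0.23, with -0.55 within Cy3 and -0.97 within Cy5. It was only -0.28 within normal salt, -0.40 within low salt and -0.13 with the mouse number as a block.

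Of 8 listed conduction genes 3 were measured, with a median difference of 0.25, or 0.40 within Cy3 and 0.44 within Cy5, and 0 were without overlap. The pacemaker genes Shox2, Isl1 and Vsnl1 were not well above background in any sample, and Hcn4 was so in 1. Tbx3, a transcription factor of conduction tissue, differed by 0.25 ± 0.15 with overlap. Cntn2, a cell adhesion gene of conduction cells, was not well above background in any Myl4-low sample, so it was kept only through the Myl4-high set. It was at least 1.33-fold higher in the mean of the Myl4-high mice, but only N3 and N4 were raised, at 7.64 and 7.52. N2 and L2 read 6.67 and 6.90, within the 6.59 to 6.92 of the Myl4-low mice, and the fitted difference was 0.31 ± 0.20 with overlap. The 5 tendon and valve genes measured were all below 0 in the fit, with a median of -0.18. Their median was 0.01 within Cy3 and -0.49 within Cy5. Comp, a cartilage and tendon matrix gene, differed by -0.90 ± 0.51 in the fit and by 0.14 within Cy3. Scgb1a1 was the only 1 of 4 lung genes measured and differed by 0.10 ± 0.09. The part of other cell types in the differences between the sets was not tested.

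**Figure D4:**
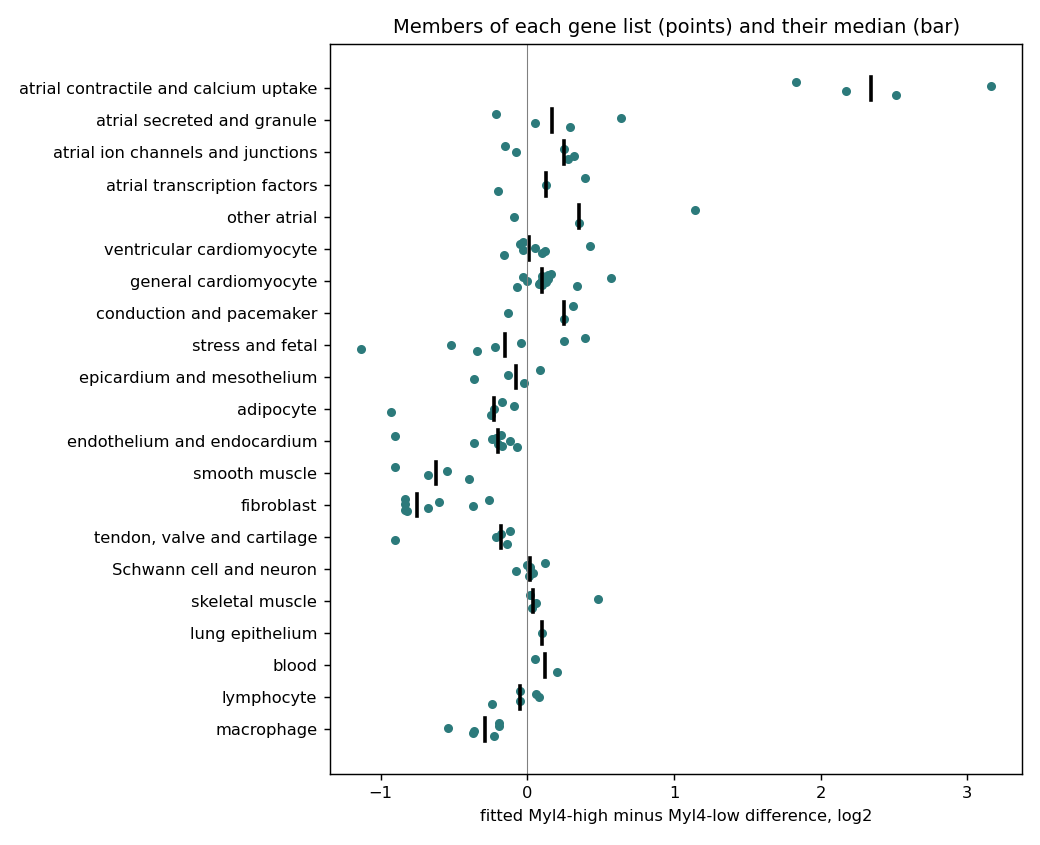
Fitted difference between Myl4-high and Myl4-low samples (log2, horizontal) for each measured member of 21 gene lists (points) with the list median (bar). The atrial contractile list, which holds Myl4, stands at a median of 2.34 and the fibroblast list at -0.75. Within the dyes the fibroblast median was -0.02 (Cy3) and -0.46 (Cy5).

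The labels define the diet comparison, which was tested with limma. Without the set in the model, 144 genes (0.789%) passed an adjusted p of 0.05, 137 higher and 7 lower on low salt. With the set as a term, 40 (0.219%) passed, 39 higher and 1 lower, and all 40 were among the 144. Of the 19 atrial genes 0 passed in limma with an adjusted p under the threshold (lowest 0.307), and 2 had an unadjusted p under 0.05. Of the 8 ventricular genes 0 passed (lowest adjusted p 0.293 in limma), and 1 had an unadjusted p under 0.05. Over all genes, 2013 of 18250 had an unadjusted p under 0.05 in the limma fit without the set. Nothing is read from the counts of atrial and ventricular genes.

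For Myl4, low minus normal salt was -1.97 ± 1.01 log2 units (adjusted p = 0.503 in limma, without the set). For Sln it was -2.16 ± 1.25 and for Myl7 -1.07 ± 0.86. The set was made from Myl4 and is unequal over the diets, so the fit with the set as a term is not read for the genes that follow Myl4. Cyp1a1, a cytochrome P450 gene, was the 1 gene lower on low salt in both fits (-2.01 and -1.94 log2 units, adjusted p = 0.00457 and 0.0429 in limma). Rcan1, an inhibitor of calcineurin, was higher by 0.89 (adjusted p = 0.0364 in limma), and its call was lost with the set as a term (0.87, adjusted p = 0.175). Scx, a tendon transcription factor, likewise went from 0.0300 to 0.150 in adjusted p (limma). Leaving out any 1 mouse brought the count with the set as a term down to between 0 and 21. With the mouse number as a block, the count was 231 without the set and 4511 with it. In that last fit the number, the set and the diet together already hold the array differences, so the array correlation was set to 0. Its diet difference compares the array of L1 and L2 with that of N1 and N2, so nothing is read from that count.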

How the data were processed

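Left ventricle RNA of 8 mice was read on 4 two-colour arrays. The deposited tables hold spot and background intensity per channel as the scanner software wrote them, Agilent Feature Extraction 11.5.1.1 per the file headers, with no normalization between arrays. Both tables of an array are copies, and each sample was read from its own dye. The deposited value table of the series was not used because its rows could not be tied to probes.

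Intensity was corrected with normexp (offset 50, the channel's median background where the background was flagged), loess within and Aquantile between arrays, in limma 3.58.1 (R 4.3.3, statmod 1.5.0). A probe had to be well above background in 4 or more of the 8 samples, and the brightest probe stood for its gene (18250 genes). Of 39429 probes, 27508 were named by accession, 3544 by symbol and 404 by synonym from RefSeq (GRCm38.p6), and 7973 kept the file's name. The model held set, diet and dye, with array as a random block (correlation 0.62, or 0.56 without the set). P-values are 2-sided with Benjamini-Hochberg adjustment. Mice are separate animals, and 4 arrays limit the precision.

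The members and lists were chosen with earlier results of these data known. Named genes were all measured atrial and ventricular genes, up to 15 called genes each way with a symbol and well above background in the set where they are high, and 2 genes of each other list by absolute difference. Hamp, Pi16, Cyp1a1, Rcan1, Scx and the unnamed transcripts were chosen after seeing their values. Mouse numbers 1 to 4 recur in both diets. Deviations from the diet means of same-numbered mice correlated at 0.14 to 0.30. After dye was taken out, numbers 1 and 3 both gave 0.19 and numbers 2 and 4 both gave 0.11. Each diet and dye holds 2 mice, so these values are equal in pairs by construction. Mice of different numbers were not compared, so the correlations do not establish a pairing. The number is also tied to the dye, and the labels give no pairing, so the block on mouse number is an assumption. Some list members are not reported here. The scripts were tested on simulated data.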

Additional observations from a re-analysis of the deposited data

Results flagged for a closer look

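Of 67 genes looked at, 133 diet groups of 4 mice had a full set of values, and 5 held a sample far from the other 3. Chance gives about 1 in 20. Myl7 was lowest in N1 among normal salt mice, at 9.38 against 11.26 to 11.51. Kcnj5 was highest in L2 among low salt mice, at 11.81 against 11.39 to 11.43, and Krt8 was lowest in the same mouse, at 6.69 against 7.08 to 7.12. These samples are the ones whose set differs from that of the other mice of their diet. Acta1 was lowest in N3, at 12.76 against 13.48 to 13.56. Sbk2 was lowest in N2, at 6.81 against 6.99 to 7.01.

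For 2 genes the sets differed in opposite ways in each diet in every sample, and the difference was not tested. Nppa was higher in every Myl4-high than in the Myl4-low mouse on normal salt, by 1.44 on average, and lower on low salt (-0.29). Pvalb, a calcium-binding protein of fast muscle, was lower on normal salt (-0.27) and higher on low salt (0.57). On normal salt N1, and on low salt L2, is the lone mouse of its set.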

How the results depend on the processing

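The number of genes called higher (24) depended on the processing, while the 5 named atrial genes kept their direction under all 23 settings tried. That direction was fixed for Myl4 by the sets, and within each dye for the others by the rule that called them. Sln ranged from 2.18 to 4.02, Myl4 from 1.51 to 3.56, Myl7 from 1.41 to 2.61, Mybphl from 1.44 to 2.85 and Sbk3 from 0.86 to 1.75. Nppa ranged from -0.51 (without N1) to 1.67 (replicate block). The count was 39 with the scanner's processed signal, 11 with no normalization between arrays, 14 with probes well above background in all samples, 44 with no filter, 10 with array as a fixed term, 51 at 1.5-fold, 4 at 3-fold, 40 by the fit alone and 5 by diets in place of dyes. Added after seeing the data, leaving out genes in bright patches gave 10 and asking for both dyes and both diets gave 5. The count of genes called lower (1) was 5 with the processed signal, 6 with no filter, 10 with the replicate block, 2 without the diet term, 9 at 1.5-fold, 0 at 3-fold, 39 by the fit alone, 0 by diets, and 0 by dyes and diets together. Without 1 mouse, the higher count ranged from 8 (without N1) to 30, with 9 without N4, and the lower count from 0 (without L2) to 8 (without L1). Without N3 or L4 a dye holds 1 set only, so those counts could not be made. The diet count (144) was 33 with the processed signal, 0 with no normalization between arrays, 49 with the local trend subtracted, 231 with the replicate block, and 52 to 109 without 1 mouse. With the set as a term (40) it was 0 with the processed signal, 0 with no normalization between arrays, 0 with the trend subtracted, 4511 with the replicate block, with 2 residual degrees of freedom, and 0 to 21 without 1 mouse. In limma, 2013 and 1637 genes had an unadjusted p under 0.05 in these fits. Called genes of the bright patches turned sign within low salt (Arpp21 -0.07, Map3k15 -0.06, St6gal2 -0.08) or without the array of N3 and N4 (Hyls1 -0.17, Slc35b3 -0.14, Uba6 -0.09, Zfp58 -0.07). These 7 sign changes of called genes were counted apart. Of the other single-gene differences recomputed, 1319 moved by less than the spread between mice and 215 by more. Some of these also crossed 0, such as Nppa at -0.51 without N1 and Dcn at 0.06 within Cy3. The cause of the other shifts was not tested.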
